A study of Saccharomyces cerevisiae with 2 samples.

Results

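The nuclear genes for proteins of the mitochondrial ribosome were examined as a set of places in the yeast genome at which DNA double strand breaks had been measured. Members were the genes of the R64 annotation whose symbol begins with MRPL, MRPS, MRP and a digit, or RSM. There were 67 of them among 6431 nuclear genes, and all 67 had at least 13 array probes inside the gene or within 2 kb of it. Together these windows held 1114 of the 41480 probes, and 166 of those lay inside the genes. The 4 members MRPS12 with RSM19 on chromosome XIV and MRPL38 with MRP49 on XI shared probes pairwise, since their windows overlapped.

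Both groups were the mec1 strain WFA73 of Saccharomyces cerevisiae, a mutant of MEC1, the gene of the checkpoint kinase that guards stalled replication forks. G1 cells held by alpha factor were released for 1 h into 200 mM hydroxyurea, a drug that depletes deoxynucleotides, and then recovered for 1 h in fresh medium. R-1h+BPS recovered with 0.8 micromolar of the iron chelator BPS, and R-1h-BPS without it. Each recovery was set against G1 DNA of the strain on 1 array of its own, with broken ends labelled by Cy3 for recovery DNA and Cy5 for G1 DNA (the Break-chip assay), to ask whether the chelator alters the pattern of breaks.

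The mitochondrial ribosome translates the few messages of the organelle's own genome, most of which encode subunits of the respiratory chain or of the ATP synthase. Nearly all of its proteins are encoded in the nucleus, made in the cytosol and imported. The 54S subunit is the large one and forms peptide bonds, and the 37S subunit is the small one and reads the messenger RNA. In the common nomenclature a protein with u in its name has relatives in every ribosome, one with b is shared with bacteria, and one with m belongs to mitochondrial ribosomes only. By their RefSeq synonyms, 38 members encode proteins of the large and 27 of the small subunit. MRP8 and RSM22 carry no such name, so their membership rests on the symbol alone. Of the 65 named ones 27 are universal, 14 shared with bacteria and 24 specific to mitochondria.

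The value of a gene was the mean, over the probes of its window, of the log2 ratio after each array had been set to a median of 0. Such a level says how much break signal a place had compared with G1 DNA, on a scale where the typical probe of that array is 0. The median ratio before centring was 1.23 with BPS and 1.21 without. No source used here states which channel was the numerator. Recovery over G1 was assumed, because the columns bear the names of the recovery samples. Neither these names nor the dyes settle the direction, and every sign below turns if the ratio ran the other way. Each group had 1 array, so differences could not be set against replicates and no p-values are given. Errors are standard errors (SE) over the probes of a window and cover scatter within the arrays only. Windows also take in neighbouring genes, and sonication to fragments limits how sharply a place can be resolved, so a value belongs to a locus rather than to a reading frame alone. G1 signal, and extra copies of DNA already replicated, also enter these ratios, and they cannot be told apart from broken ends here.

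The 67 members lay on high and low ground alike, with levels close to those of nuclear genes in general. With BPS the median of the 67 members was 0.12 and their levels ran from −1.27 to 1.50. Without BPS the median was 0.07 and the range −1.62 to 1.12. Over all 6332 nuclear genes with at least 3 probes the medians were −0.01 with BPS and 0.001 without. A level above 0.5 was found at 20 members (29.9%) with BPS, beside 26.0% of all genes, and at 18 members (26.9%) without BPS, beside 25.6%. A level below −0.5 was found at 20 members (29.9%) with BPS, beside 26.8% of all genes, and at 14 (20.9%) without BPS, beside 24.7%. Each of these shares was near its background, and windows of neighbouring genes overlap, so the genes counted in the background are not independent.

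The difference between the recoveries, R-1h+BPS minus R-1h-BPS, was small at most members. Its median was −0.01 over the members and −0.05 over all genes, and the middle 50% of members ran from −0.19 to 0.22. At 41 members (61.2%) it was under 0.25 log2 units in size, against 55.1% of all genes. A difference above 0.5, or 1.41-fold, was reached at 4 members (5.97%), MRPL6, MRP1, RSM18 and MRPS8, beside 7.42% of all genes. No member had a difference below −0.5, beside 4.60% of all genes. Closest to these bounds were MRPS8 (0.52) just inside, and MRPL7 (0.47) and MRPL4 (−0.47) just outside. With BPS the signal was higher at 32 of the 67 members (47.8%) and at 44.7% of all genes.

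**Figure D1:**
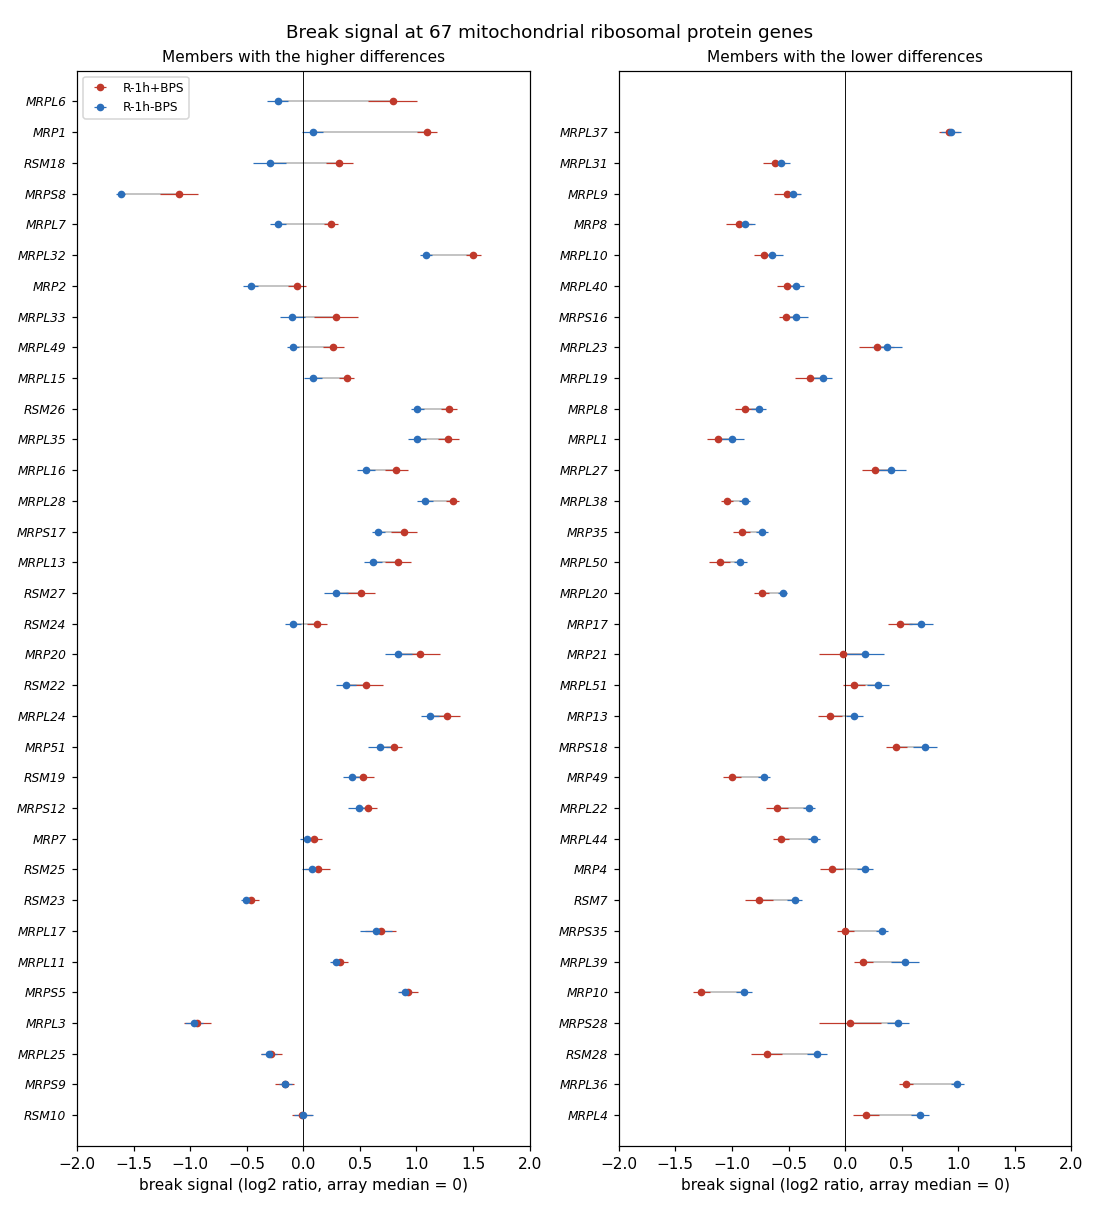
Break signal at each of the 67 members, in log2 units with each array's median at 0, in R-1h+BPS (red) and R-1h-BPS (blue). Points are means over the probes of the gene and 2 kb either side, bars are SE over probes, and members run from the highest difference (MRPL6, 1.02) at the top left to the lowest (MRPL4, −0.47) at the bottom right.

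**Figure D2:**
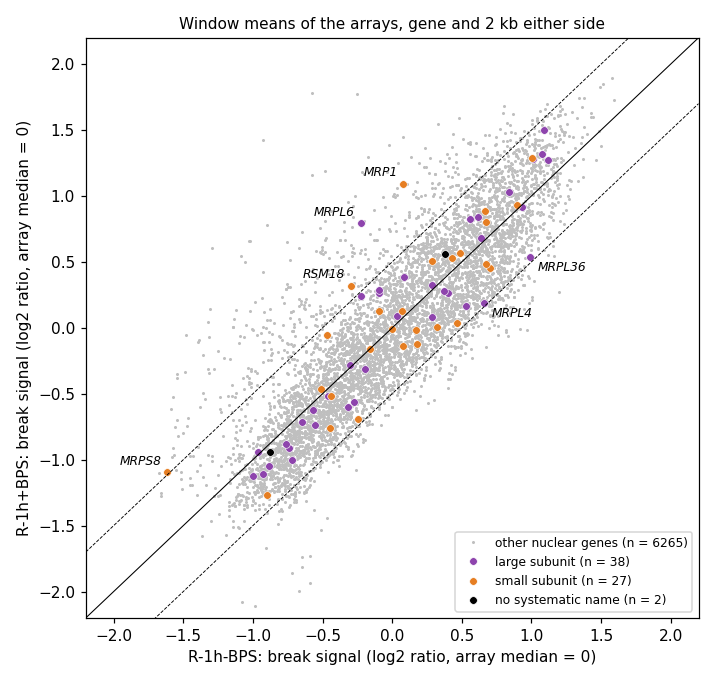
Level with BPS (vertical) against level without BPS (horizontal), both in log2 units, for members by subunit and for the other nuclear genes in grey. The solid line marks equal levels and the dashed lines a difference of 0.5 either way, and 4 members lie beyond the upper dashed line and none beyond the lower.

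Among the large-subunit genes MRPL6 differed most. It encodes uL6m, a universal protein, and its window lay on chromosome VIII from 390.7 to 395.1 kb, with IMP3, a gene for processing of cytosolic ribosomal RNA, among its neighbours. The level was 0.79 ± 0.22 with BPS and −0.23 ± 0.09 without (SE, 16 probes), and the median deposited ratio in the window was 2.38 with BPS and 1.08 without. That is a difference of 1.02 ± 0.16, or 2.03-fold, and 15 of the 16 probes were higher with BPS. Leaving out any 1 probe kept the difference between 0.96 and 1.13. The probes between 2 and 10 kb from the gene differed by 0.40 in the same direction, and the smoothed difference stayed above mid-height, midway to its local peak, over 9.17 kb, from 385.4 to 394.5 kb.

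MRPL7, for the universal protein uL5m, stood next on the large-subunit list. On IV at 934.7 to 939.4 kb its level was 0.24 ± 0.06 with BPS and −0.22 ± 0.07 without, and 18 of 19 probes were higher with BPS. Its surroundings differed by as much (0.50), in a stretch 22.2 kb wide, so the gene did not stand out from its neighbourhood. MRPL32 encodes bL32m, which the m-AAA protease trims after import. It had the highest level of all members with BPS, 1.50 ± 0.07, against 1.09 ± 0.05 without (19 probes, III, 116.8 to 121.1 kb). The difference was 0.41 ± 0.08, and the surrounding probes differed by 0.08. MRPL32 lies 4.04 kb from the middle of the interval that holds the centromere.

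Smaller positive differences were found at MRPL33 (uL30m), MRPL49 (bL21m) and MRPL15 (mL57). MRPL33 on XIII had 0.29 ± 0.19 with BPS and −0.10 ± 0.11 without, and its probes were scattered, reaching down to −2.09 with BPS. MRPL49 on X had 0.27 ± 0.09 with BPS and −0.09 ± 0.05 without. MRPL15 on XII had 0.38 ± 0.07 with BPS and 0.09 ± 0.08 without. The surrounding probes differed by 0.28 at MRPL33, 0.31 at MRPL49 and 0.29 at MRPL15.

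The lowest difference of all members was at MRPL4, for the universal protein uL29m, on XII from 1012.9 to 1017.2 kb. Its level was 0.19 ± 0.11 with BPS and 0.66 ± 0.08 without, a difference of −0.47 ± 0.14, and 3 of 17 probes were higher with BPS. The surrounding probes differed by −0.04, and the low stretch was 4.51 kb wide. MRPL36, for bL31m, was lower with BPS along its whole window. At 482.1 to 486.4 kb on II, beside the glycyl-tRNA synthetase gene GRS1, it had 0.54 ± 0.06 with BPS and 0.99 ± 0.06 without (16 probes), and not 1 of the 16 probes was higher with BPS. It was the only member with no probe higher with BPS, and its difference was −0.46 ± 0.06. MRPL39 (bL33m, XIII), 17.0 kb from the centromere, had 0.16 ± 0.09 with BPS and 0.53 ± 0.12 without. MRPL44 (mL53, XIII), whose window also takes in MRE11, a gene of the complex that binds broken ends, had −0.57 ± 0.07 with BPS and −0.27 ± 0.05 without. The surrounding probes differed by −0.12 at MRPL36, −0.54 at MRPL39 and −0.14 at MRPL44.

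**Figure D3:**
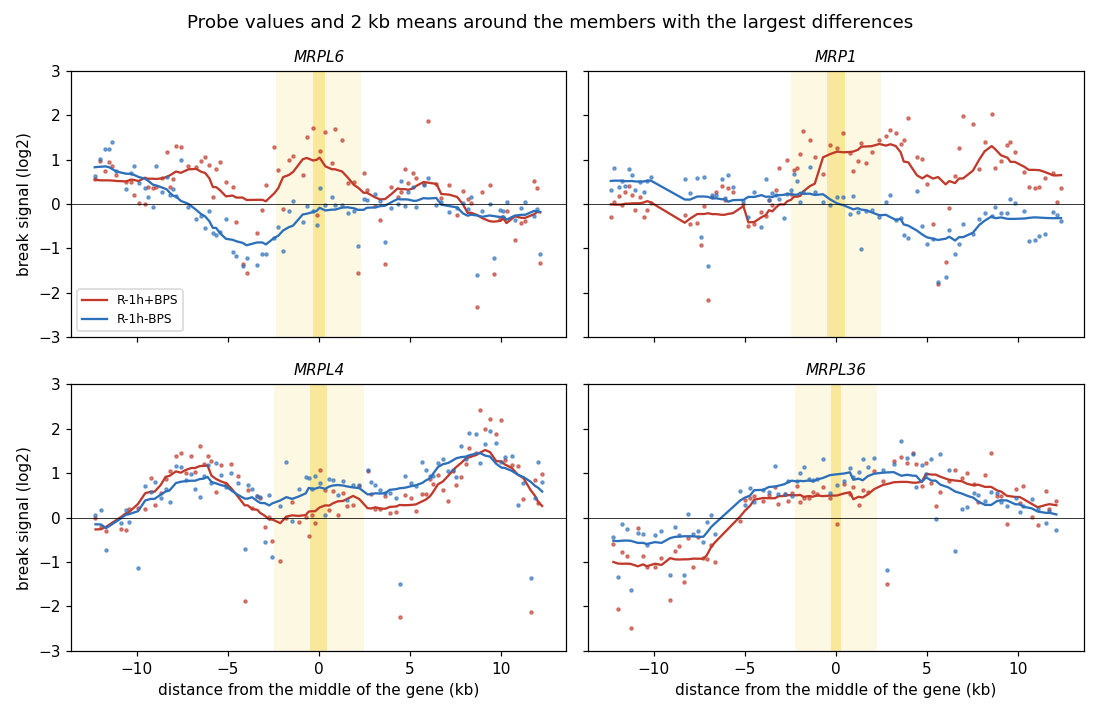
Probe values (dots) and means over 2 kb either side (lines) in log2 units against distance from the middle of the gene in kb, for MRPL6, MRP1, MRPL4 and MRPL36, in R-1h+BPS (red) and R-1h-BPS (blue). Dark shading is the gene and light shading its 2 kb flanks. The red line runs above the blue one across the windows of MRPL6 and most of that of MRP1, and below it at MRPL4 and MRPL36. A probe at −8.01 with BPS beside MRP1 lies below the axis.

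Among the small-subunit genes MRP1 differed most. It encodes mS43, a protein specific to mitochondrial ribosomes that resembles superoxide dismutases in sequence. On IV from 1167.2 to 1172.1 kb the level was 1.09 ± 0.09 with BPS and 0.08 ± 0.10 without (18 probes), with median deposited ratios of 2.71 and 1.30. The difference was 1.01 ± 0.14, or 2.02-fold, and 17 of the 18 probes were higher with BPS. MRP1 stood at one edge of a wider block, which stayed above mid-height over 13.9 kb, from 1169.0 to 1182.8 kb, and also held ATP22, a translational activator of the mitochondrial ATP synthase message. ATP22 itself had 0.76 with BPS and −0.52 without. With the gene positions moved 1 kb down the chromosome the value at MRP1 was 0.42, because the window then took in a single probe at 1166.8 kb with −8.01 with BPS and −0.32 without. It was 0.87 in that position without this probe.

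RSM26 encodes mS42, the other superoxide dismutase relative of the small subunit. It was high on both arrays, at 1.29 ± 0.07 with BPS and 1.01 ± 0.06 without (X, 616.3 to 620.8 kb), a difference of 0.28 ± 0.09. At RSM18, for bS18m, the level was 0.32 ± 0.12 with BPS and −0.30 ± 0.14 without, and 13 of 14 probes were higher with BPS (V, 252.2 to 256.1 kb). The difference of 0.62 ± 0.12 compares with 0.28 over the surroundings. MRP2, for uS14m, on XVI had −0.06 ± 0.08 with BPS and −0.47 ± 0.06 without. It had no probe inside the gene, and its surroundings differed by more (0.63) than its own window (0.41).

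MRPS8, for the universal protein uS8m, had the lowest level of all members without BPS. At 570.3 to 574.6 kb on XIII it stood at −1.10 ± 0.17 with BPS and at −1.62 ± 0.04 without, so that it was low on both arrays. The 16 probes spanned −2.29 to 0.17 with BPS but only −1.83 to −1.27 without. The difference of 0.52 ± 0.15 was not centred on the gene: the probes inside MRPS8 averaged −1.53 with BPS and −1.56 without, and the surroundings differed by 0.61. With probes inside the gene only, the difference was 0.03, and with quantile normalization it was 0.90.

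On the other side, RSM28 (mS46, IV) had −0.69 ± 0.14 with BPS and −0.25 ± 0.09 without, a difference of −0.44 ± 0.09. MRPS28, for uS15m, had 0.04 ± 0.27 with BPS and 0.46 ± 0.10 without (17 probes). This value rested in large part on 1 probe at −3.94 with BPS, and without that probe the difference was −0.18 in place of −0.42. MRPS28 lies on IV at 1144.5 to 1149.0 kb on the same arm as MRP1, and the differences at these genes had opposite signs. MRP10 encodes mS37, a twin-cysteine-motif protein imported through the Mia40 pathway. It had −1.27 ± 0.08 with BPS, the lowest level of all members in that recovery, and −0.90 ± 0.07 without. The window of MRP10 overlaps that of MTF2, a gene for mitochondrial transcript processing, which had −1.14 with BPS and −0.94 without. MRPS35 (mS45, VII) had 0.0025 ± 0.08 with BPS and 0.33 ± 0.05 without, RSM7 (uS7m, X) had −0.76 ± 0.12 with BPS and −0.45 ± 0.07 without, and MRP4 (uS2m, VIII) had −0.12 ± 0.10 with BPS and 0.18 ± 0.07 without. The surrounding probes differed by −0.37 at RSM28, −0.34 at MRPS28, −0.29 at MRP10 and −0.16 at MRP4. At MRPS35 (0.12) and RSM7 (0.08) they differed in the other direction.

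The 5 highest mean levels among the members were at the same genes on each array. After MRPL32 came MRPL28 (mL40, IV) at 1.32 ± 0.06 with BPS and 1.08 ± 0.07 without. RSM26 has been given above. MRPL35 (mL38, IV) had 1.28 ± 0.09 with BPS and 1.01 ± 0.08 without, and MRPL24 (bL28m, XIII) had 1.27 ± 0.11 with BPS and 1.12 ± 0.08 without. The last 4 lay within 1 SE of each other with BPS, so their order is not resolved. The window of MRPL24 overlaps that of RPL36A, a cytosolic ribosomal protein gene, which had 1.39 with BPS and 1.13 without. Without BPS the fifth place is not resolved either, since MRPL36 stood at 0.99 ± 0.06 beside RSM26 at 1.01 ± 0.06. As measured, these 5 members had differences of 0.15 to 0.41, but log2 ratios were spread more widely with BPS (robust SD 0.894 with BPS and 0.813 without). After quantile normalization, which gives both arrays the same spread, the differences were 0.17 at MRPL32, 0.03 at MRPL28, 0.08 at RSM26, 0.07 at MRPL35 and −0.08 at MRPL24, so their direction is not settled at MRPL24 and their size depends on the scaling at all 5.

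Low places were shared less exactly. MRPL1, for uL1m, which flanks the exit site of the ribosome, had −1.13 ± 0.10 with BPS and −0.996 ± 0.11 without. It is the neighbour on IV of MRX14, another mitoribosomal protein gene, and the overlapping window of MRX14 had −1.14 with BPS and −0.99 without. MRPL50 (bL9m, XIV) had −1.11 ± 0.09 with BPS and −0.93 ± 0.06 without. MRPL38 (uL14m, XI) had −1.04 ± 0.06 with BPS and −0.89 ± 0.05 without, and MRP49 (mL61), which shares its probes in part, had −1.0 with BPS and −0.72 without. MRPL3 (mL44, XIII) had −0.94 ± 0.12 with BPS and −0.96 ± 0.08 without. The wider spread with BPS applies to these low levels as well. Across the settings of the closing section the difference ran from −0.24 to 0.04 at MRPL1 and from −0.24 to −0.03 at MRPL50. It ran from −0.21 to 0.66 at MRPL38 and from 0.01 to 0.29 at MRPL3.

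The remaining 18 large-subunit genes had differences from −0.28 (MRP49) to 0.27 (MRPL16). They were MRPL8, MRPL10, MRPL11, MRPL13, MRPL16, MRPL17, MRPL19, MRPL20, MRPL23, MRPL25, MRPL27, MRPL31, MRPL40, MRPL51, MRP7, MRP20, MRP35 and MRP49. The highest of these was MRP20, for uL23m at the tunnel exit, with 1.03 with BPS and 0.84 without. The remaining 15 small-subunit genes had differences from −0.25 (MRPS18) to 0.23 (MRPS17). They were MRPS5, MRPS9, MRPS12, MRPS16, MRPS17, MRPS18, MRP13, MRP17, MRP21, MRP51, RSM10, RSM23, RSM24, RSM25 and RSM27. MRPS5, for uS5m, was the highest of these, with 0.93 with BPS and 0.90 without. RSM22, for a methyltransferase-like protein, had 0.56 with BPS and 0.38 without, and MRP8 had −0.94 with BPS and −0.88 without. Neither was assigned to a subunit here.

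By subunit, medians stayed within a narrow band. The 38 large-subunit genes had a median of 0.17 with BPS and −0.10 without, and a median difference of −0.06, with 1 difference above 0.5 (2.63%). The 27 small-subunit genes had 0.04 with BPS and 0.08 without, and a median difference of 0.03, with 3 above 0.5 (11.1%), beside 7.42% of all genes. With BPS a level below −0.5 was found at 14 large-subunit genes (36.8%) and 5 small-subunit genes (18.5%), beside 26.8% of all genes. Without BPS it was found at 10 large-subunit genes (26.3%) and 3 small-subunit genes (11.1%), beside 24.7%. By conservation, the median differences were −0.01 for the 27 universal proteins, −0.10 for the 14 shared with bacteria and 0.02 for the 24 specific to mitochondria. No uncertainty was computed for these medians, and the splits were not tested.

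Medians by chromosome ranged more widely than medians by subunit, with few members on each. No member is on I or VI, and 12 are on IV. The 8 members on XI had medians of −0.68 with BPS and −0.56 without, below the medians of all genes there (−0.08 with BPS and −0.16 without). The 7 members on II had 0.54 with BPS and 0.56 without, above those of all genes there (0.07 with BPS and 0.17 without). On XI, low levels came from MRPL38, MRP49, MRP8, MRPL31 and MRPL20, while MRP17, MRPL13 and RSM22 were high. MRP17 (bS6m) and MRPL13 (mL50) flank the centromere of XI at 2.70 and 10.8 kb, and had 0.48 and 0.84 with BPS against 0.67 and 0.62 without.

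Centromere regions are known to replicate early, and 7 members lie within 30 kb of a centromere. Their median was 0.16 with BPS and 0.53 without, and their median difference was −0.08. All 551 genes within that distance had medians of 0.34 with BPS and 0.42 without. The 60 members farther away had medians of 0.10 with BPS and −0.05 without. At the 7 members the levels were widely spread, from MRPL32 at 1.50 with BPS and 1.09 without to MRPS16 (bS16m, XVI) at −0.52 with BPS and −0.44 without. No member lies within 20 kb of a chromosome end.

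Across the members the gene itself was compared with its flanks. With BPS the probes inside the gene were on average below those of the flanks at 21 of the 65 members with a probe inside (32.3%), against 43.9% of all genes. Without BPS this was so at 34 of 65 (52.3%), against 46.2%. The median of gene minus flanks was 0.10 with BPS and −0.02 without, and over all genes 0.04 with BPS and 0.02 without. Most genes of the set are short and hold a few probes, so these contrasts are imprecise. On the mean of both arrays the 3 highest contrasts were at MRPL37 (mL54, II), MRPL22 (uL22m, XIV) and RSM7, though with BPS alone MRP20 (0.57), MRPL38 (0.52) and RSM27 (0.51) were above RSM7 (0.49). At MRPL37 the gene stood above its flanks by 0.78 with BPS and 0.39 without, on 1 probe inside. At MRPL22, next to the cytosolic gene RPS3, it stood above by 0.65 with BPS and 0.21 without. At MRPL36 (1 probe inside), MRPL9 (uL3m, VII) and RSM19 (uS19m, 1 probe inside), the 3 lowest on the mean of both arrays, the gene was below its flanks. Gene minus flanks was −0.72 at MRPL36, −0.47 at MRPL9 and −0.40 at RSM19 with BPS, and −0.28, −0.31 and −0.15 in the same order without. RSM19 had a level of 0.53 with BPS and 0.43 without, and MRPS12 (uS12m), which shares most of its window, had 0.57 with BPS and 0.49 without.

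In the direction of transcription the median of the members varied little. With BPS it was 0.13 at 1 to 2 kb upstream, 0.11 within 1 kb upstream, 0.19 in the gene, and 0.19 within 1 kb downstream. Without BPS these were −0.06, 0.03, −0.001 and 0.05. Within 1 kb upstream all genes together had −0.11 with BPS and −0.04 without, and the 138 cytosolic ribosomal protein genes had −0.09 with BPS and 0.15 without. The median difference in that stretch was −0.003 for the members, −0.09 for all genes and −0.21 for the cytosolic set.

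**Figure D4:**
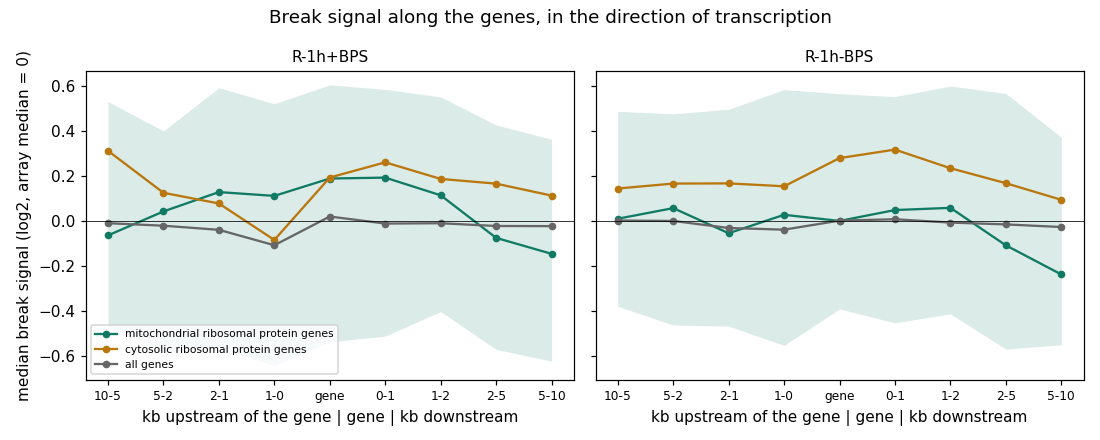
Median break signal (log2 units) by position along the gene, from 10 kb upstream to 10 kb downstream, for the 67 mitochondrial ribosomal protein genes with their quartiles shaded, for 138 cytosolic ribosomal protein genes and for all genes, in R-1h+BPS (left) and R-1h-BPS (right). The members' medians stay between −0.24 and 0.19, and the shading is the spread between genes.

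Differences at the members ran with those of their surroundings. At 48 of the 67 members (71.6%) the window and the probes from 2 to 10 kb away differed in the same direction, against 74.7% of all genes. Median differences were −0.01 in the windows and −0.04 in the surroundings.

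Other genes of mitochondrial translation were described from lists of names. Of 12 mitoribosomal protein genes with other names none had a difference above 0.5 and 2 had one below −0.5, with a median difference of −0.12. Their median level was −0.56 with BPS and −0.40 without. Levels below −0.5 were found at 7 (58.3%) with BPS and 5 (41.7%) without, beside 26.8% and 24.7% of all genes. Levels above 0.5 were found at 2 (16.7%) and 3 (25%), beside 26.0% and 25.6%. In difference IMG2 was the highest (0.43 with BPS and 0.24 without) and YML6 the lowest (0.01 with BPS and 0.58 without). Of 8 translation factor genes 1 had a difference above 0.5 and none had one below −0.5, with a median difference of 0.18. FMT1, for the methionyl-tRNA formyltransferase, had 1.01 with BPS and 0.01 without, while MRF1, a release factor gene, had 0.11 with BPS and 0.26 without. Of 13 genes for mitochondrial aminoacyl-tRNA synthetases 1 was above 0.5 and 2 were below −0.5, with a median of −0.26. MSM1, for the methionine enzyme, had the highest difference of all these lists, with 1.45 with BPS and 0.08 without (VII, 839.1 to 844.5 kb), a 2.59-fold difference with 20 of 21 probes higher. MSR1, for the arginine enzyme, was the lowest of that list, with 0.03 with BPS and 0.57 without.

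Genes for assembly of the mitochondrial ribosome and its RNA had none of 12 above 0.5 and 3 below −0.5, with a median of −0.27. RMD9 had −0.13 with BPS and −0.39 without, and MRM1, an rRNA methyltransferase gene, had −0.87 with BPS and −0.21 without. Of 16 translational activator genes 1 was above 0.5, ATP22, and none was below −0.5, with a median of −0.01. PET122 had the lowest difference there, with −1.23 with BPS and −0.73 without. Together 3 of these 61 genes (4.92%) were above 0.5, beside 7.42% of all genes, and 7 (11.5%) were below −0.5, beside 4.60%. Their median level was −0.36 with BPS and −0.29 without. Among the 138 cytosolic ribosomal protein genes 2 (1.45%) were above 0.5 and 10 (7.25%) below −0.5, and the median level was 0.14 with BPS and 0.27 without. RPS25B was the highest of them in difference, with 0.74 with BPS and −0.34 without, and RPL16B the lowest, with −0.29 with BPS and 0.42 without. Whether any of these lists differs from the 67 members was not tested.

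**Figure D5:**
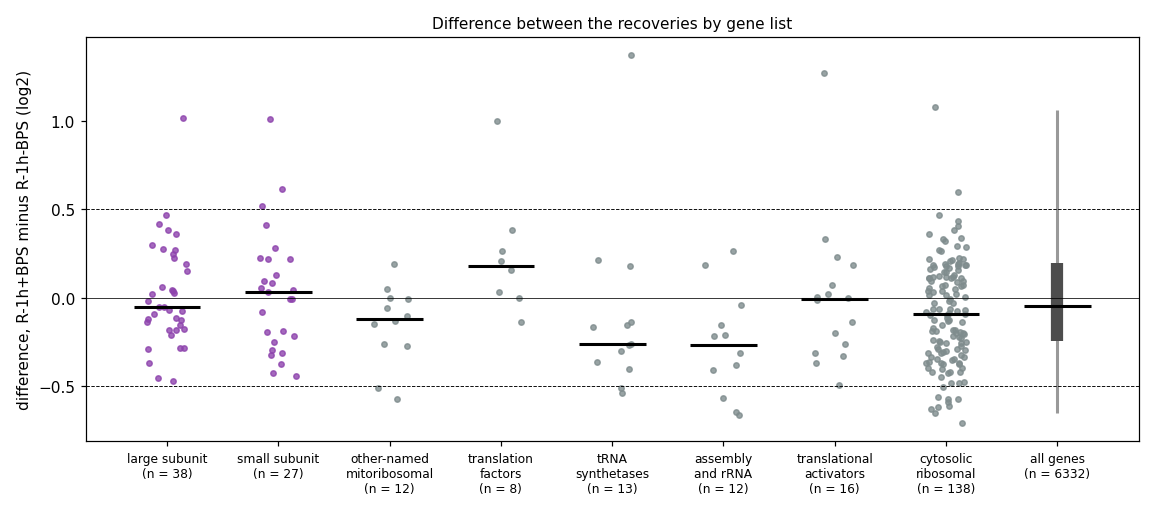
Difference between the recoveries (R-1h+BPS minus R-1h-BPS, log2 units) for every gene of each list, with the median as a black bar. For all 6332 genes the thick bar spans the quartiles and the thin one the 1st to 99th percentiles, and dashed lines mark 0.5 either way. The large- and small-subunit genes have medians of −0.06 and 0.03, and no member lies below −0.5.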

How the data were processed

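The deposited table holds 1 linear ratio per probe and array, which the authors call normalized. The submitters' processing notes name Agilent Feature Extraction, version 9.5.1. How the ratios were normalized, which channel was the numerator and the genome build are not given in the sources used here. How far each probe stood above background is unknown here, as only ratios were used. A normalization between dyes removes any difference in total breakage.

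The log2 of each deposited ratio was taken and each array's median subtracted, with no filter on low values. Gene positions are those of RefSeq's R64 annotation, whose coordinates are not printed. As a check of placement, 25 long Ty frames on 8 chromosomes, repeats that arrays tend to skip, held 2 probes in place. They held 28 or 27 when moved 0.5 kb down or up. Placement on the other chromosomes was not checked. Gene values needed at least 3 probes. Calculations used Python 3.11.15, numpy 2.4.6 and pandas 2.3.3, and the window means were tested on simulated data.

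Members and lists were chosen with earlier results of these data known. Members were named by rule: the 10 highest and 10 lowest differences, the 5 highest and 5 lowest levels on each array, and the 3 highest and 3 lowest gene-flank contrasts on the mean of both arrays. Each other list gave its highest and lowest difference. Overlapping neighbours and further members were named after their values were seen. Positions are in kb of the deposited table, and no sequences were used here.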

Additional observations from a re-analysis of the deposited data

How the results depend on the processing

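The results were recomputed under 15 alternatives, 3 of them chosen after seeing the data (the most extreme probe of each window left out, members over 30 kb from a centromere only, and members with a systematic name only). With probes inside the gene only, 12 of 65 members had a difference above 0.5 and 4 of 65 one below −0.5, where all genes had 10.6% and 9.17%. The members' share above 0.5 was then larger than that of all genes, while with 2 kb flanks it was smaller. These values rest on the few probes inside each gene. Members below −0.5 numbered 2 with 1 kb flanks (6.63% of all genes there), 2 after scaling both arrays to a common robust SD (4.39%), 2 after quantile normalization (4.47%), 1 with medians in place of means (MRPL4, 6.29%) and 1 without the most extreme probe (MRPL4, 5.39%). The median level without BPS was −0.038 with 5 kb flanks and −0.046 over members more than 30 kb from a centromere. Without centring the levels of all genes shift by about 0.28, to medians of 0.28 with BPS and 0.28 without. The members then had medians of 0.42 with BPS and 0.35 without. Of the members 28 were then above 0.5 without BPS, 10 below −0.5 with BPS and 7 below −0.5 without. The shares of all genes past these bounds were not computed without centring, so these counts show nothing particular to the members. All other summary values moved by under 0.1 log2 units or, for counts, by at most 1.5 times. At named members 444 of 475 recomputed differences stayed within 1.96 SE of the value given, and 11 turned sign, none at a member past 0.5. Alternatives that only leave genes out cannot change the difference of a remaining member. Their values are among the 475 and were the same in advance. MRPL6 stayed above 0.5 throughout (0.72 to 1.26), RSM18 was 0.43 with 5 kb flanks, and MRPS8 ran from 0.03 to 0.90. No paired analysis was possible because each group has 1 array.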
